A study of Mus musculus with 8 samples.

Results

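Tooth germs of mouse embryos whose mothers had been given the antibody 40-1a were compared with tooth germs of embryos whose mothers had been given PBS. These are both control injections of a study that blocked Hedgehog signalling. The comparison uses 4 of the 8 arrays in the series, 2 for each control. They were chosen by the treatment that the labels give, and every probe set was described. Pregnant ICR mice received a single intraperitoneal injection at embryonic day 14, either 10 mg/kg of 40-1a or 1 ml of PBS. Mandibular molar tooth germs were dissected from the embryos 24 hours later. The other 4 arrays, 2 after the antibody 5E1 and 2 after cyclopamine, both at 10 mg/kg, entered the estimate of the spread, the choice of each gene's probe set and the filter on dim genes, and are otherwise quoted as a reference. No group carried a transgene or a deletion. RNA was taken from whole tooth germs, so each value mixes epithelium, mesenchyme and whatever tissue was dissected with them. The labels call the arrays of a group biological replicates. They do not say whether these came from separate litters or how many embryos were pooled, so p-values measure only the spread between these samples.

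In the tooth germ, epithelial cells secrete Sonic hedgehog (Shh). The ligand binds the receptor Ptch1 on receiving cells, which releases the transducer Smo and activates Gli transcription factors. Ptch1, Gli1 and Hhip are themselves transcribed in response and serve as read-outs of the pathway. The antibody 5E1 binds Shh and cyclopamine binds Smo. The antibody 40-1a is raised against beta-galactosidase and is used as an unrelated antibody. Maternal antibodies reach the embryo by transport that depends on the neonatal Fc receptor, encoded by Fcgrt, and cells of the macrophage lineage bind antibodies through other Fc receptors. A 40-1a control therefore differs from a PBS control by the presence of an antibody, and the comparison asks which transcripts differ between both kinds of control.

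Expression was measured on Affymetrix arrays and deposited as one MAS5 signal per probe set, a linear brightness scaled to the same average on every array. Of 45101 probe sets, 34945 carried a single gene name, which gave 18193 genes with 1 probe set each. After the dimmest were left out, 13008 genes were tested with limma on log2(signal + 9). A log2 difference below is the mean of the 40-1a arrays minus the mean of the PBS arrays on that scale, which understates the change of dim genes. Genes of molar mesenchyme and of epithelium were bright. Barx1, a homeobox gene of molar mesenchyme, was at signals of 3696 and 3910 after 40-1a and 3304 and 6442 after PBS. Krt5, a keratin of basal epithelium, was at 18431 and 26151 against 16654 and 17685. Krt13, a listed marker of suprabasal oral epithelium, was also bright, at 5294 and 25071 against 10304 and 10310. These values do not show an equal make-up of the samples. Unlike Barx1, the summed mesenchyme markers were lower on 40-1a array 2 (29771) than on 40-1a array 1 (52386).

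The arrays did not group by control. The median absolute log2 difference over the genes tested was 0.301 between the 40-1a arrays and 0.252 between the PBS arrays. For single arrays of opposite groups it was 0.160 for 40-1a array 1 and PBS array 1, 0.181 for the second arrays, 0.252 for 40-1a array 1 and PBS array 2, and 0.298 for 40-1a array 2 and PBS array 1. No pair from opposite controls lay farther apart than the 40-1a replicates did. The nearest of the other 7 arrays to 40-1a array 2 was a cyclopamine array (0.138), and the nearest to PBS array 1 was a 5E1 array (0.140). The array-to-array structure therefore did not follow the injections, and each result below is given array by array. Control probe sets for 18S ribosomal RNA averaged 210.8 and 61.1 after 40-1a and 448 and 164 after PBS. The ratio of 3′ to 5′ actin signal was between 1.19 and 1.25 on these 4 arrays. Cyclopamine array 1, which entered the estimate of the spread, stood apart, with an 18S average of 2548 and an actin ratio of 1.504. The 5E1 arrays had 18S averages of 348.2 and 64.67, and cyclopamine array 2 had 52.93. Their actin ratios were 1.215, 1.216 and 1.179. Fitted to only the 4 arrays of 40-1a and PBS, limma called 0 genes.

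**Figure D1:**
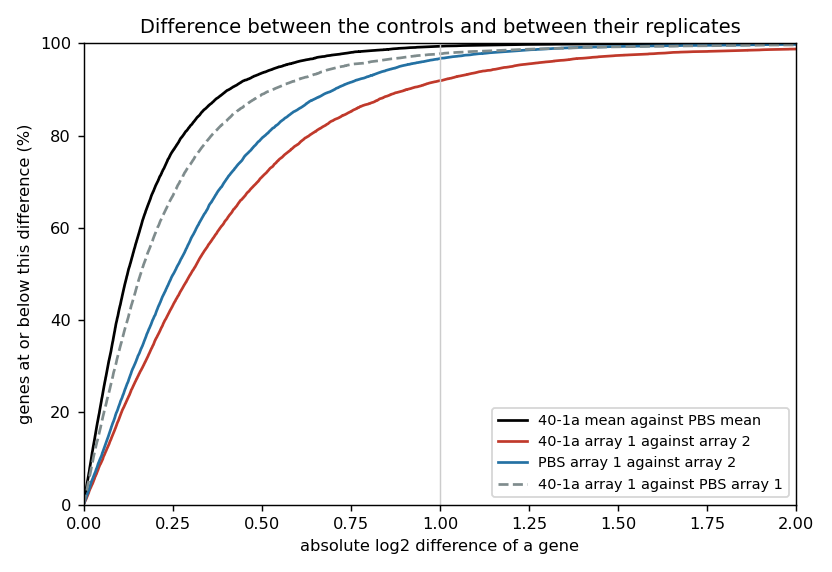
Share of the 13008 genes (vertical axis, percent) whose absolute log2 difference is at or below the value on the horizontal axis, for the group means, for the replicates of each control and for 40-1a array 1 against PBS array 1. The curve of the group means rises first (median 0.123), and the curve of the 40-1a replicates rises last (median 0.301).

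No gene differed between 40-1a and PBS in the test across all genes. limma called 0 of 13008 genes (0%) at a Benjamini-Hochberg adjusted p under 0.05, and its smallest adjusted p was 0.9999. At an unadjusted p under 0.05 there were 88 genes (0.677%), 39 higher and 49 lower after 40-1a. Evenly spread p-values would put a share of 0.05 under that limit, so small p-values were fewer than that. The reason was not tested. The error of the test is estimated from the spread between replicates. The replicates lay 0.301 and 0.252 apart. Same-numbered arrays of the opposite controls lay 0.160 and 0.181 apart, and differently numbered ones 0.252 and 0.298. The 0 calls do not show that the controls were alike. Between the group means the median absolute log2 difference was 0.123, and it was at least 2-fold for 78 genes. The mean of 2 arrays varies less than 1 array, so this value is smaller than those between single arrays partly by construction. The middle 95% of the log2 differences ran from -0.57 to 0.53, with a median of -0.00, and 6407 genes were higher (49.3%) and 6601 lower (50.7%). An exact permutation test of 2 arrays against 2 cannot go below a two-sided p of 0.3333, so no single gene could be tested that way.

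The intervals say how large a difference these arrays leave possible. The limma standard error of a gene's log2 difference had a median of 0.26. For 9335 genes (71.8%) the 95% confidence interval, taken gene by gene, lay within 2-fold in either direction, and for 12580 genes (96.7%) it lay within 4-fold. For the remaining genes the interval reached beyond 2-fold on at least 1 side.

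The values on the arrays of opposite controls did not overlap for 2664 genes (20.5%), 1263 of them higher after 40-1a (9.71%) and 1401 lower (10.8%). Of these, 54 genes (0.415%) also differed by at least 2-fold, 24 higher (0.185%) and 30 lower (0.231%). Most were dim. Their median signal was 94.7, against 645 over all genes tested, and 46 of the 54 had a mean signal under 200, as had 20.8% of all genes. For 32 of the 54 the mean of 1 group lay under 60.3, the signal of the filter on dim genes. The count was 500 without 40-1a array 1, 243 without 40-1a array 2, 173 without PBS array 1 and 204 without PBS array 2, since a lone array overlaps less easily with the other group. Against the 5E1 and cyclopamine arrays, whose mean can be set beside both controls, the 24 higher genes lay nearer to 40-1a in 15 cases and nearer to PBS in 9, and the 30 lower genes lay nearer to 40-1a in 13 and to PBS in 17. That count says which control stood away from the other 4 arrays, gene by gene, and it was divided.

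**Figure D2:**
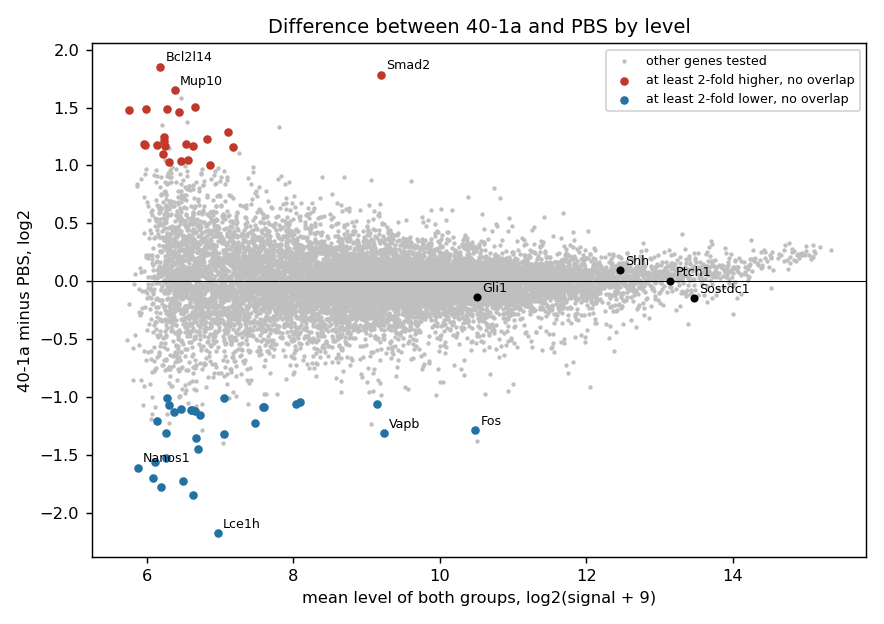
Log2 difference of 40-1a minus PBS (vertical axis) against the mean level of both groups on the log2(signal + 9) scale (horizontal axis), 1 point per gene tested. Red and blue points are the 24 and 30 genes at least 2-fold higher or lower without overlap, most of them at the dim end, and black points are Shh, Ptch1, Gli1 and Sostdc1, between -0.15 and 0.09.

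Among higher genes, the smallest unadjusted p belonged to Bcl2l14, a member of the Bcl2 family of apoptosis regulators. Its signals were 127 and 131 after 40-1a and 33.5 and 25.4 after PBS, a log2 difference of 1.85 (SE 0.34, limma unadjusted p = 0.000679, adjusted p = 0.9999). By the rule that chose it, both 40-1a arrays lay above both PBS arrays. A dimmer probe set of the gene was also higher (82.5 and 72.2 against 32.4 and 29.5). The 5E1 and cyclopamine arrays lay between 74.2 and 139, so it was the PBS arrays that stood apart. Removing any of the 4 arrays left the difference between 1.70 and 2.01. The gene was picked for its small p, so this range is not separate support.

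Smad2, which carries TGF-beta and activin signals to the nucleus, was the brightest gene above 2-fold on the higher side. It was at 850 and 1373 after 40-1a and 557 and 168 after PBS (log2 1.78, SE 0.49). The low value came from PBS array 2, and the other 4 arrays were between 860 and 1023. A second probe set of Smad2 gave the opposite order, at 562 and 352 after 40-1a and 833 and 1006 after PBS (log2 -1.03), and the mean of both probe sets was at 0.38. The gene's direction thus depended on the probe set.

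Egfr, the receptor for epidermal growth factor, was at 1139 and 1432 after 40-1a and 911 and 750 after PBS (log2 0.62, SE 0.20). Of its 7 probe sets, 4 had the same sign and 3 did not. The other leading higher genes were dim. Mup10, from the family of major urinary protein genes whose copies are nearly identical, was at 193 and 99.1 against 33.0 and 43.6 (log2 1.65), and its signal cannot be assigned to 1 copy with certainty. Stk10, a serine/threonine kinase, was at 168 and 253 against 72.4 and 86.6 (log2 1.29). The remaining 7 genes of this selection were Ankrd33b, Izumo4, the steroid dehydrogenase gene Hsd17b14, the LIM-domain gene Lmo3, the kinase gene Pkn3, the choline dehydrogenase gene Chdh and Csrnp1, with log2 differences from 0.81 for Pkn3 to 1.46 for Lmo3. The higher genes of this selection had non-overlapping arrays by the rule that chose them, and none passed the test after adjustment.

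Among lower genes, Nanos1, which encodes an RNA-binding repressor of translation, was at 21.2 and 28.6 after 40-1a and 71.1 and 123 after PBS (log2 -1.61, SE 0.39). The other 4 arrays, at 59.2 to 89.3, lay above both 40-1a arrays. Nanos1 and, on the higher side, Hsd17b14 passed the filter on dim genes only because these other arrays entered it. Mybpc3, a myosin-binding protein gene of heart muscle, was at 68.0 and 51.8 against 142 and 137 (log2 -1.12, SE 0.30). Here too the other arrays, at 97.4 to 208, lay above the 40-1a arrays. Lce1h, a gene of the cornified envelope of skin, had the lowest log2 difference of all 13008 genes, at -2.18 (SE 0.56). Its signals were 79.4 and 30.2 against 189 and 349, and the other 4 arrays were at 22.6 to 61.6, so that the PBS arrays stood apart. Its probe set can bind near-identical members of the same family.

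Of brighter genes on the lower side, Ibsp, the bone sialoprotein of osteoblasts and cementum, was at 909 and 658 after 40-1a and 1519 and 1325 after PBS (log2 -0.87, SE 0.28). The other 4 arrays ran from 536 to 1471 and overlapped both controls. Rbmx, an RNA-binding protein gene of the splicing machinery, was at 1590 and 1900 against 2357 and 2838 (log2 -0.57, SE 0.18), but another probe set, at 1003 and 597 against 765 and 760, gave 0.02. Prim2, the large subunit of DNA primase, was at 551 and 843 against 1201 and 1052 (log2 -0.71, SE 0.24), and a second bright probe set gave -0.11. The mitochondrial sirtuin gene Sirt4, the p38 kinase gene Mapk11, Tspyl2, 2610316D01Rik, E530011L22Rik and C630043F03Rik had log2 differences between -1.53 and -0.52, and a second probe set of Mapk11 gave -0.01. All 12 had non-overlapping arrays by the rule that chose them, and none passed after adjustment.

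**Figure D3:**
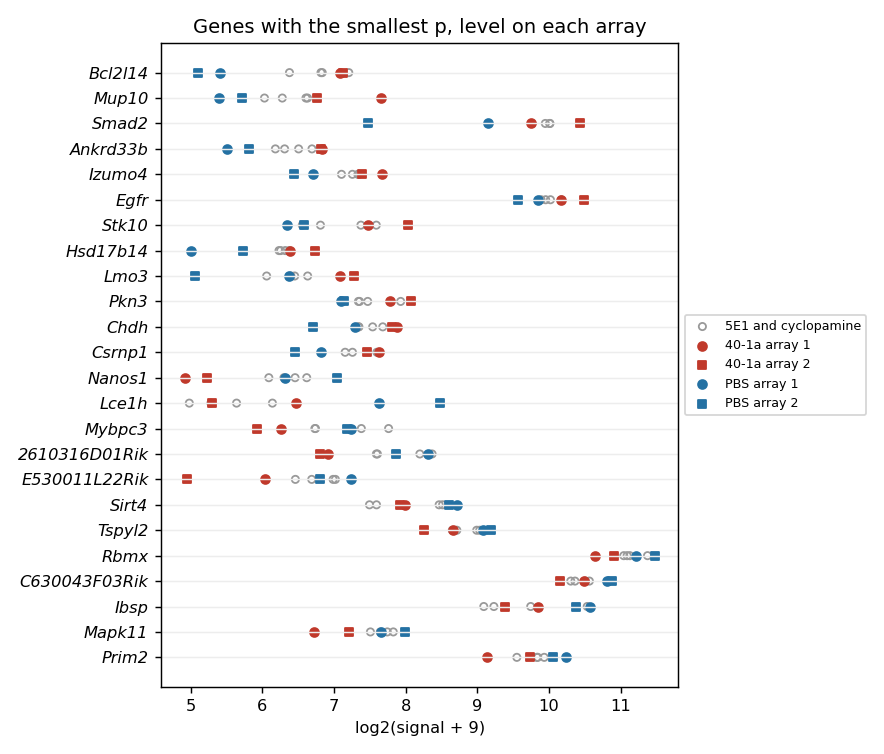
Level on each array, log2(signal + 9), of the 12 higher and 12 lower genes with the smallest unadjusted p among those without overlap between the controls. Filled symbols are the 40-1a and PBS arrays (circles array 1, squares array 2) and open circles are the 5E1 and cyclopamine arrays, which lie nearer to 40-1a for Bcl2l14 and nearer to PBS for Mybpc3.

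The Hedgehog read-outs had overlapping ranges in both controls. Ptch1, the receptor and feedback inhibitor of the pathway, was at 11322 and 7180 after 40-1a and 9611 and 8474 after PBS. The 40-1a arrays lay on either side of the PBS arrays, the log2 difference was -0.00 (SE 0.30), and its 95% interval ran from -0.70 to 0.70. For reference, the 5E1 arrays were at 2122 and 1552 and the cyclopamine arrays at 9683 and 5793. Dimmer probe sets of Ptch1 were at 459 and 171 against 231 and 73.7, and at 248 and 253 against 289 and 295, so their signs differed.

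Gli1, the transcription factor induced by the pathway, was at 1196 and 1586 after 40-1a and 1070 and 2143 after PBS. The PBS arrays enclosed the 40-1a arrays (log2 -0.14, SE 0.40, interval -1.07 to 0.79). For Gli1 the 5E1 arrays were at 240 and 348 and the cyclopamine arrays at 2157 and 1193. Hhip, a secreted inhibitor that binds the ligand, was at 176 and 77.7 against 236 and 162 (log2 -0.69, SE 0.46). Its ranges overlapped, and its low value was that of 40-1a array 2. Other probe sets of Hhip were also lower, at -0.26, -0.58 and -0.82, each with overlapping arrays. On the brightest probe set the 5E1 arrays were at 35.1 and 31.5, below all 4 control arrays. The cyclopamine arrays were at 167 and 90.7 on it.

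Shh itself was at 4701 and 7117 after 40-1a and 4562 and 6443 after PBS (log2 0.09, SE 0.27), with the second array the brighter in both groups. Smo was at 3367 and 3162 against 2940 and 2888 (log2 0.16, SE 0.14), and a second probe set was at -0.02. Sostdc1, whose secreted product restrains BMP and Wnt ligands in the tooth, was at 12303 and 9416 against 11943 and 11923 (log2 -0.15, interval -0.61 to 0.31). The signs of Ptch1, Gli1, Shh and Sostdc1 each turned when 1 array was left out, with ranges of -0.33 to 0.33, -0.63 to 0.36, -0.21 to 0.39 and -0.34 to 0.04.

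Of the 14 listed Hedgehog targets 13 were tested, and limma called 0 of them. Higher after 40-1a were 2 and lower 11, with a median of -0.15 against -0.00 over all genes, and 1 of the 13 did not overlap (10.8% of all genes on that side). The cyclin gene Ccnd1 was that gene, at 2970 and 3129 against 3146 and 3371. The forkhead gene Foxf1, a target in mesenchyme, had the lowest value of the list, at 2125 and 716 against 1968 and 2369 (log2 -0.80). It is named after its values were seen, and its low value came from 40-1a array 2 alone. Without that array the median of the list was 0.03. Dental mesenchyme markers were also low on that array (below), and their part in the list's values was not tested. The 12 ligands and transducers of the pathway that were tested had 5 higher and 7 lower, with a median of -0.05 and a range from -0.26 to 0.27.

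**Figure D4:**
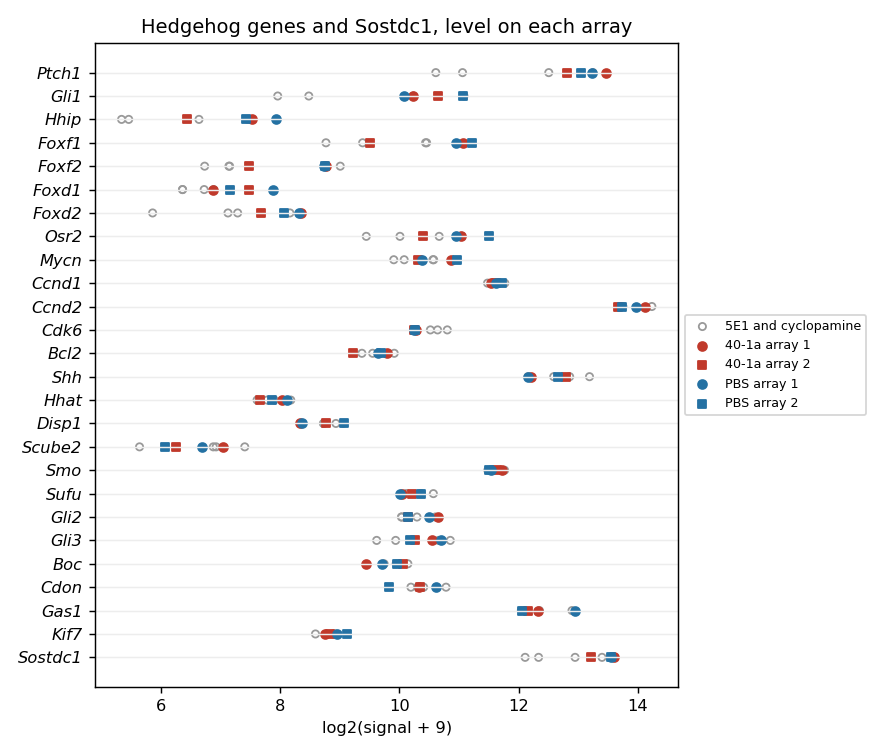
Level on each array, log2(signal + 9), of Hedgehog targets (Ptch1 to Bcl2), ligand and transducer genes (Shh to Kif7) and Sostdc1. Red (40-1a) and blue (PBS) symbols mix for Ptch1 and Gli1, whereas for Hhip the leftmost open circles are the 5E1 arrays, below all 4 controls.

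No gene of antibody handling passed the test after the antibody was injected, and most were lower by the mean. Fcgrt was at 1551 and 1087 after 40-1a and 1897 and 1557 after PBS (log2 -0.40, SE 0.39), the 40-1a arrays just below the PBS arrays. Its 95% interval ran from -1.30 to 0.50. Fcgr1, the high-affinity receptor for IgG, was at 150 and 95.8 against 208 and 165 (log2 -0.59, SE 0.32). A second probe set of Fcgr1 had the other sign, at 154 and 95.3 against 151 and 86.4 (log2 0.08). The inhibitory receptor gene Fcgr2b was at 368 and 298 against 290 and 336 (log2 0.08, SE 0.23), but the mean of its 5 probe sets was at -0.38. The activating receptor gene Fcgr3 was at 203 and 187 against 252 and 189 (log2 -0.16, SE 0.34). Of 9 tested genes for Fc receptors and antibody handling, 3 were higher and 6 lower (median -0.16). Of the lower ones 3 did not overlap, where 10.8% of all genes did so on that side, and the median ran from -0.34 to -0.01 with 1 array left out. Glb1, the gene of mouse lysosomal beta-galactosidase, was at 808 and 796 against 671 and 841 (log2 0.09, SE 0.19), within the PBS range.

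Immune response genes were not called either. Complement genes were lower in 10 of 11 cases with a median of -0.17, and 3 of the 11 did not overlap on that side (10.8% of all genes). Without PBS array 1 the complement median was 0.00, so its sign rested on that array. Interferon-stimulated genes were lower in 9 of 12 cases with a median of -0.12, and 4 of the 12 did not overlap on that side (10.8% of all genes). With 1 array left out the median ran from -0.32 to -0.01. Gbp2, a guanylate-binding protein gene, was at 40.9 and 58.8 against 82.6 and 91.3 (log2 -0.72, SE 0.34). Tap1, a peptide transporter gene of antigen presentation, was at 62.1 and 108 against 125 and 132 (log2 -0.59, SE 0.37). A further 10 of the 22 listed interferon genes were too dim to test or had no single-gene probe set, among them Ifit1, Mx1 and Cxcl10.

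NF-kB and inflammation genes were split, 5 higher and 7 lower, with a median of -0.08 whose sign turned under 2 of 11 other settings. Birc3, an inhibitor of apoptosis and NF-kB target, was at 527 and 435 against 378 and 311 (log2 0.47, SE 0.24). Socs3, a feedback inhibitor of cytokine signalling, was at 644 and 422 against 876 and 706 (log2 -0.58, SE 0.33). Its other probe sets gave -0.23 and -0.13 with overlapping arrays. Il1b, Il6, Tnf and Ptgs2 were below the filter. Macrophage markers had a median of -0.14 (5 higher, 7 lower), and their summed signals, 6207 and 4740 after 40-1a and 7457 and 4787 after PBS, overlapped. Of 14 lymphocyte markers 2 were tested.

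None of the lists of tooth signalling genes held a gene that passed the test. Genes of the enamel knot, the epithelial signalling centre that shapes the crown, were 8 higher and 8 lower, and 0 of the 16 had arrays without overlap, where 20.5% of all genes did in either direction. FGF targets had 4 higher and 6 lower (median -0.03), and 18 cell cycle genes lay between -0.14 and 0.11. Wnt/beta-catenin targets were lower in 12 of 16 cases (median -0.12) and BMP targets in 10 of 12 (median -0.07). Without PBS array 2 these medians were 0.11 and 0.04, so both signs rested on that array. In the BMP list, the inhibitory Smad gene Smad6 was at 708 and 692 against 883 and 935 (log2 -0.37, SE 0.17). Id2, which encodes an inhibitor of basic helix-loop-helix factors, was at 5184 and 3858 against 6826 and 4990 (log2 -0.38, SE 0.23) with overlapping ranges. Secreted Wnt inhibitors were lower in 8 of 10 cases (median -0.32), and the median was 0.02 without 40-1a array 2. Of the mineralisation genes 4 of 10 were bright enough, and among them Odam, an ameloblast-associated protein gene, was at 537 and 507 against 670 and 982 (log2 -0.63, SE 0.26).

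Muscle and suprabasal markers differed more between the 40-1a arrays than between the controls. Skeletal muscle markers, from tissue next to the germ, summed to 2209 and 17656 after 40-1a and 7632 and 3481 after PBS, so the 40-1a arrays held both the lowest and the highest sum. The muscle list's median was 0.28, and it went from -0.98 to 1.66 as 1 array was left out. Of the 22 listed markers Neb, Myf5 and Myf6 were below the filter. Markers of suprabasal oral epithelium summed to 27212 and 110137 against 48249 and 44249, again with the PBS arrays between. All 18 tested were higher by the mean (median 0.31), and 1 of 18 had non-overlapping arrays (9.71% of all genes on that side). Without 40-1a array 2 the median was -0.80. Fewer cells of a type and less RNA per cell cannot be told apart in such bulk samples.

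Markers of the tooth's own layers followed 40-1a array 2. Dental epithelium markers summed to 93858 and 153158 after 40-1a and 91737 and 106400 after PBS, and all 18 were higher by the mean, between 0.16 and 0.36. Of these, 3 did not overlap (9.71% of all genes on that side), including Krt5 (log2 0.36, SE 0.24). Dental mesenchyme markers summed to 52386 and 29771 against 50200 and 52802, lower on 40-1a array 2 alone, with a median of -0.50 (2 higher, 16 lower). Without that array the median was -0.08 for the epithelium and 0.01 for the mesenchyme. The second arrays of 5E1 and cyclopamine stood the same way, unlike PBS array 2, with mesenchyme sums of 18962 after 5E1 and 26012 after cyclopamine, against 51377 and 54639 on their first arrays.

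Endothelial markers kept their sign whichever array was left out, as did several other lists, among them osteoblast markers and extracellular matrix genes. Their summed signals were 9213 and 8103 after 40-1a and 10854 and 10302 after PBS. Of 16 tested, 15 were lower after 40-1a and 8 did not overlap, where 10.8% of all genes did so on that side. The median was -0.36, and between -0.47 and -0.25 with 1 array left out. For 40-1a array 1 against PBS array 2 it was only -0.03. Tek, the angiopoietin receptor, was at 252 and 245 against 399 and 373 (log2 -0.62, SE 0.31). Flt1, a VEGF receptor, was at 180 and 76.6 against 231 and 211 (log2 -0.85, SE 0.49). Dimmer probe sets of Flt1 gave -0.67, -0.17 and -0.06, the last 2 with overlapping arrays. limma called 0 of the 16. The 5E1 and cyclopamine arrays had sums of 10527, 5991, 10050 and 7674, a range wider than that of the controls.

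Extracellular matrix genes were lower in 14 of 16 cases (median -0.27), and 5 of the 16 did not overlap on that side (10.8% of all genes). Lox, which crosslinks collagen and elastin, was at 2339 and 2556 against 4354 and 2586 (log2 -0.46, SE 0.32). Eln, elastin, was at 1777 and 2697 against 2937 and 2994 (log2 -0.44, SE 0.30), and the proteoglycan gene Dcn at 5878 and 4380 against 6583 and 6492 (log2 -0.37, SE 0.26). The list's median was -0.03 without 40-1a array 2, -0.05 without PBS array 1, -0.40 without 40-1a array 1 and -0.42 without PBS array 2. Mesenchyme and endothelial markers were also lower by the mean, and their part was not tested. Osteoblast markers were lower in 5 of 6 cases (median -0.26), Ibsp among them, and cartilage markers in 5 of 7 (median -0.26).

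Ribosomal protein genes were higher by the mean in 14 of 14 cases, with a median of 0.24. Of these, 9 did not overlap, as did 9.71% of all genes on that side and 30.4% of the genes at a mean signal of at least 15000. Rps9 was at 24383 and 22175 after 40-1a and 19942 and 19039 after PBS (log2 0.25, SE 0.12), Rpl19 at 29157 and 25809 against 23173 and 23336 (log2 0.24, SE 0.12), and Rps3 at 26764 and 21669 against 20390 and 19554 (log2 0.27, SE 0.14). Of 3 probe sets of Rps9 above the filter, 1 had this sign. The brightest genes as a class had the same sign. Of the 115 genes at a mean signal of at least 15000, which include 12 of the 14 ribosomal genes, 109 were higher after 40-1a (94.8%) with a median of 0.18. After quantile normalisation, which gives every array the same distribution of values, 49 of the 115 were higher with a median of -0.01, and 12 of the 14 ribosomal genes were higher with a median of 0.02. Without 40-1a array 1 the ribosomal median was 0.09, and without 40-1a array 2 it was 0.37. The hybridisation controls averaged 10399 on 40-1a array 1, the array with the highest ribosomal signals, and between 6618 and 8428 on the other 7 arrays. Ribosomal genes also have many processed copies in the genome that a probe set may bind. Mitochondrial respiratory chain genes were higher in 12 of 14 cases (median 0.07), with Ndufv1, a subunit of complex I, at 4141 and 4221 against 3585 and 2706 (log2 0.42, SE 0.17), although a second probe set gave 0.04.

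Stress and metabolic lists gave small medians. Immediate early and heat shock genes were lower in 11 of 18 cases (median -0.07), and 6 of the 18 did not overlap on that side (10.8% of all genes). The transcription factor gene Fos, which is induced within minutes of a stimulus, was at 574 and 1424 after 40-1a and 2919 and 1685 after PBS (log2 -1.28, SE 0.89), and the other arrays ran from 455 to 4165, beyond both controls. Egr1, another immediate early gene, was at 2442 and 1630 against 2527 and 3472 (log2 -0.57, SE 0.27). Glucocorticoid-responsive genes were lower in 7 of 11 cases (median -0.11). Unfolded protein response genes were higher in 10 of 16 (0.08), p53 targets in 8 of 12 (0.09), hypoxia genes in 9 of 18 (0.01), circadian clock genes in 6 of 12 (-0.01) and cholesterol synthesis genes in 9 of 13 (0.09). Over all 37 lists, 433 different genes were tested and limma called 0.

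**Figure D5:**
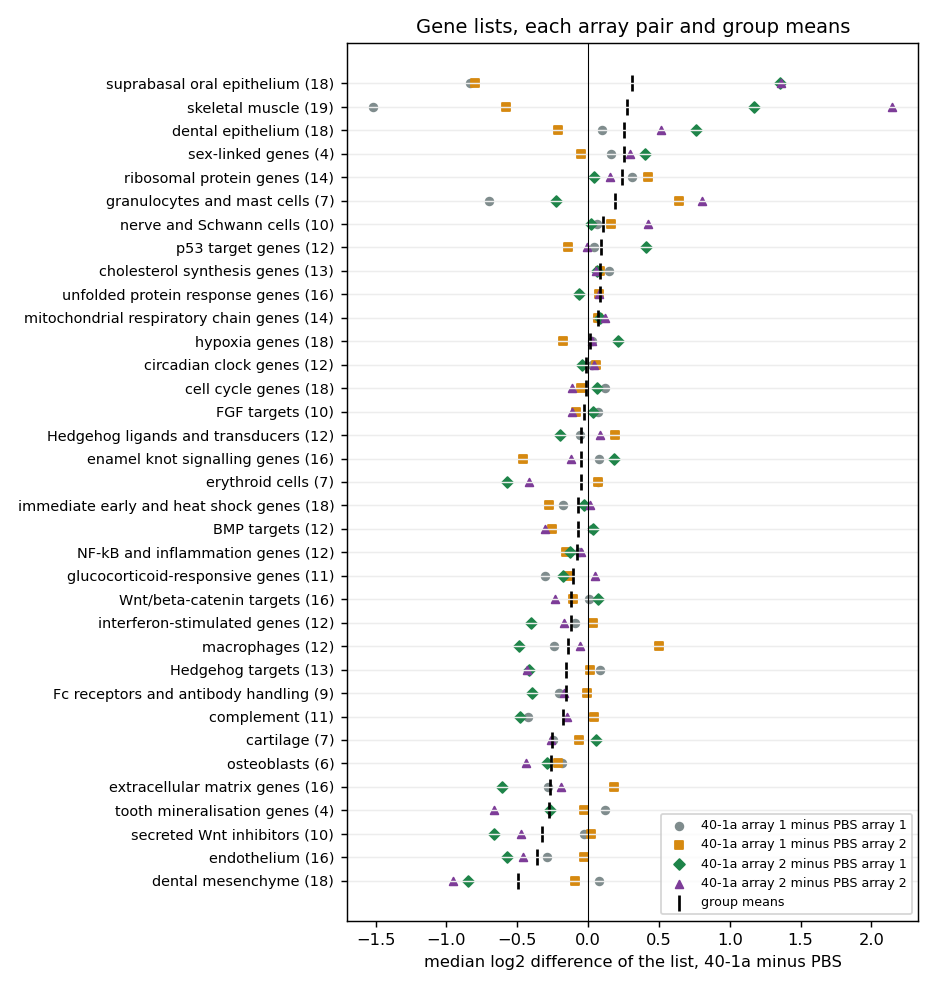
Median log2 difference of each gene list (number of genes tested in parentheses) for the 4 pairings of a 40-1a array with a PBS array (symbols) and for the group means (black bars). Skeletal muscle spans from -1.52 to 2.15 across the pairings. The endothelium lies below 0 in all 4, as do osteoblast, Fc receptor and NF-kB genes.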

How the data were processed

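Affymetrix Mouse Genome 430 2.0 signals were deposited by the authors as one linear intensity per probe set, made with MAS5 per the submitters' processing notes (its version is not given in the sources used here). On every array the 2%-trimmed mean was 500.0. The labels' protocols give 5 µg of total RNA as input to labelling. Probe sets were named through an annotation of 2016. Of the single-gene probe sets, 34741 had their gene ID in the RefSeq table, 932 probe sets named several genes, 9160 named none and 64 were controls. Each gene was represented by its probe set with the highest mean, and genes at or under the 40th percentile of all probe sets but the controls (signal 60.3) were left out, 5185 in all. limma 3.58.1 in R 4.3.3 fitted 4 group means to log2(signal + 9) on all 8 arrays, with trended moderation and Benjamini-Hochberg adjustment at 0.05. The script was tested on simulated data.

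Named genes were the 12 higher and 12 lower with the smallest unadjusted p among genes without overlap, since none passed, up to 3 members of each of 37 lists with an unadjusted p under 0.2, and fixed Hedgehog and Fc receptor genes. Others are named after their values were seen. Members and lists were chosen with earlier results of these data known. Replicate numbers were not used as pairs in the main comparison, since the labels name no shared litter or day. Alternatives covered scaling, pseudocount, filter, probe set choice, variance model, replicate block and leaving out each array. The number of arrays limits the precision.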

Additional observations from a re-analysis of the deposited data

How the results depend on the processing

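limma called 0 genes under every alternative run, with 41 to 357 genes at an unadjusted p under 0.05 and smallest adjusted p-values from 0.923 to 1. With the replicate number as a block (replicate block) it called 0, with 280 at an unadjusted p under 0.05. Deviations of same-numbered arrays correlated at 0.35 between 40-1a and PBS, 0.59 between 40-1a and 5E1, 0.41 between PBS and 5E1, 0.33 between 40-1a and cyclopamine, 0.32 between 5E1 and cyclopamine and 0.00 between PBS and cyclopamine. The correlation was above 0.3 in 5 of 6 group pairs. Each group enters several of these pairs, so the values are not independent, and whether they reflect pairing was not tested. The labels name no shared litter or day, and the numbers were not taken as pairs. The count of 54 genes at least 2-fold apart without overlap (24 higher, 30 lower) became 25 (10 and 15) with a pseudocount of 32, 663 (450 and 213) with no filter and 7 (1 and 6) with the filter at the 60th percentile. With a pseudocount of 1 the higher count was 39. With 1 array left out the counts ran from 173 to 500 in all, 86 to 218 higher and 55 to 282 lower. Of 882 values of named genes under alternatives, 17 reversed. Rps9 was at -0.059 and Smo at -0.015 without x and s probe sets. With the mean of probe sets, Ptch1 was at 0.28, Smo at -0.056 and Fcgr2b at -0.38, and with each array centred on its median Ptch1 was at 0.021. With 1 array left out, Ptch1 ran from -0.33 to 0.33, Gli1 from -0.63 to 0.36, Shh from -0.21 to 0.39, Sostdc1 from -0.34 to 0.044, Glb1 from -0.068 to 0.25, Fcgr2b from -0.065 to 0.23 and Fcgr3 from -0.36 to 0.039. The cause was not tested. Of 554 list medians, 28 moved beyond the spread of the 4 array pairings. Signals near 60.3 and below limit the dim genes.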

Other observations

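Probe sets without a single gene name were described separately. Of 3428 tested, 31 were at least 2-fold higher and 11 at least 2-fold lower after 40-1a without overlap. Tested each on its own, 27022 probe sets gave 0 limma calls, where 216 had an unadjusted p under 0.05, and 0.9999 was the smallest adjusted p.

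Markers of tissues at the edge of the dissection gave further values. Of 7 listed salivary gland and tongue markers 2 were tested, Elf5 and Pax1, with a median of 0.68. Aqp5, Smgc, Dcpp1, Bpifa2 and Tas1r3 were below the filter, so the list says little about these tissues. Elf5 and Pax1 summed to 292 and 611 after 40-1a and 249 and 277 after PBS, without overlap of the sums. The other 4 arrays ran from 206 to 570. Erythroid markers summed to 7321 and 3097 against 5208 and 3670, so the PBS arrays lay between the 40-1a arrays. Markers of granulocytes and mast cells summed to 2156 and 2589 against 3109 and 1408, and nerve and Schwann cell markers to 2729 and 3767 against 2788 and 2987. Of the sex-linked genes 3 of 4 were higher after 40-1a, the Y genes Kdm5d (log2 0.38), Eif2s3y (0.34) and Uty (0.16), and Xist was lower (-0.14). Xist was at 2144 and 1914 against 2120 and 2351, and Eif2s3y at 452 and 606 against 377 and 451. The share of each sex in the samples was not tested.

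By level, genes at signals of 5000 to 15000 were higher after 40-1a in 68% of cases (367 of 540, median 0.05), those of 1000 to 5000 in 46.9% (1847 of 3934) and those of 200 to 1000 in 46.5% (2615 of 5627). In the brightest class, at 15000 and above, the median was 0.23 and 0.39 for 40-1a array 1 against PBS arrays 1 and 2, and -0.07 and 0.09 for 40-1a array 2.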
